A study of Homo sapiens with 12 samples.

Results

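Cholesterol, fatty acid synthesis and sterol handling genes were examined in 2 human acute myeloid leukaemia lines after knockdown of the chromatin remodeler CHD4. The list named 33 genes, and a member was measured where a probe set was annotated to it alone, by current or former symbol. This gave 29 of the 33 members, among 11963 genes in all, with the probe set of highest mean over the 12 arrays standing for each gene. FDFT1, CYP51A1, FADS1 and ELOVL1 had no such probe set and were not analysed here. U937 is a monocytic leukaemia line and MV4-11 a myelomonocytic one that carries an MLL fusion gene. Each line carried a lentiviral pRRL.H1 vector that expresses GFP and either a scrambled shRNA or an shRNA against the target, 3 arrays per group in 4 groups. Vector, GFP and a growth medium with fetal bovine serum were shared by all groups. The target is written CDH4 in the labels of the samples and CHD4 in the series text. CHD4, the ATPase of the NuRD complex, stood at 21.8% of its scrambled level in U937 and 25.1% in MV4-11, and the groups are called CHD4 shRNA for that reason. Whether cells were sorted for GFP, were clones or carried 1 hairpin or more is not given in the sources used here.

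Cells make cholesterol from acetyl-CoA through mevalonate, isoprenoid diphosphates, squalene and lanosterol, and make fatty acids from malonyl-CoA. Both routes are switched on by the membrane-bound transcription factors SREBP-1 and SREBP-2, which SCAP escorts to the Golgi when sterols are low and INSIG proteins hold in the endoplasmic reticulum when sterols are high. SREBPs bind sterol regulatory elements and act together with NF-Y, which binds CCAAT boxes. Surplus cholesterol leaves the cell through the ABC transporters ABCA1 and ABCG1, which oxysterol-activated LXR receptors induce, and cholesterol taken up with lipoproteins leaves the lysosome through NPC1.

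Promoter sequences are shown for the 4 members that fell in U937 (PMVK, IDI1, SC5D and DHCR7, described below by their values) and for SREBF2, which encodes SREBP-2. Each is the run of 250 bases before a RefSeq transcription start in GRCh38.p14, read 5′ to 3′ on the gene's strand. Capitals mark CCAAT on either strand (ATTGG where it lies on the other strand) and, in SREBF2 alone, TCACNCCAC, the core of a sterol regulatory element. SC5D, IDI1 and DHCR7 have more than 1 start in the table, and a window that held CCAAT is shown for each. CCAAT was in both SC5D windows, and IDI1 and DHCR7 each have 1 window without it. Their positions are chr11:121292521-121292770 (plus strand) for SC5D, chr11:71448394-71448643 (minus) for DHCR7, chr10:1049120-1049369 (minus) for IDI1, chr1:154936720-154936969 (minus) for PMVK and chr22:41832855-41833104 (plus) for SREBF2.
SC5D: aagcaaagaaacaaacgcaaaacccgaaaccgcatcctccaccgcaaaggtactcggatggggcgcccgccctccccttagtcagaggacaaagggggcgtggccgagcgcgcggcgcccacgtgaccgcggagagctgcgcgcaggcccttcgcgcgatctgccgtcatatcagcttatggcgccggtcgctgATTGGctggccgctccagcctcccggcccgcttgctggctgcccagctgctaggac
DHCR7: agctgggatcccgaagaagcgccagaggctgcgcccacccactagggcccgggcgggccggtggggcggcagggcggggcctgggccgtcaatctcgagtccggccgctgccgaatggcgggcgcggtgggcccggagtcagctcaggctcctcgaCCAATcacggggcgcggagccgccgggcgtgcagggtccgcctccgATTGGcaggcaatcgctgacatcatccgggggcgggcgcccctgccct
IDI1: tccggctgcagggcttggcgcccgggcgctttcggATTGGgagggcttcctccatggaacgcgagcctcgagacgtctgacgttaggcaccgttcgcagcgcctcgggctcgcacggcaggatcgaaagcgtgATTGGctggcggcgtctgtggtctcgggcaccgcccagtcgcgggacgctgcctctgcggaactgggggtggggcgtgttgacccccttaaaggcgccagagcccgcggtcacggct
PMVK: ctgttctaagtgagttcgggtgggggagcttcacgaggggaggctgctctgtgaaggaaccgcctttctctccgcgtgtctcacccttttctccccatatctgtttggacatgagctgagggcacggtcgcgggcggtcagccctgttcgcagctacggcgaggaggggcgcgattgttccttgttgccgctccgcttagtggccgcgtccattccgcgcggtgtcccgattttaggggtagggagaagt
SREBF2: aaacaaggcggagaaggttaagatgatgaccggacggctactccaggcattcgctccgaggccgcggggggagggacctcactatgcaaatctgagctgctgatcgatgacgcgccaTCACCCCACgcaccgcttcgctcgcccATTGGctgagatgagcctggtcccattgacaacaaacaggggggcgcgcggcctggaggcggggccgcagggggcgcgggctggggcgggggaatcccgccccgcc
In the windows shown, the CCAAT nearest the start began 56 bases before it in SC5D, 48 in DHCR7, 117 in IDI1 and 106 in SREBF2. In the other windows with a match, the CCAAT nearest the start began 137 bases before it in SC5D and 87 in IDI1. In SC5D this is the site marked above, and in IDI1 it is a different site. PMVK held no match in this window. The SREBF2 window held TCACNCCAC 133 bases before the start.

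Of the 33 listed genes 28 had a promoter in the RefSeq table, in 37 windows, some of which overlap. CCAAT was found on either strand in 24 of the 37 windows (64.9%), against 32.0% of all 35116 windows and 32.7% of the 22198 windows of protein-coding genes. Counted by gene, 20 of 28 members held it in at least 1 window (71.4%), against 40.2% of protein-coding genes. It was found in 8 of 9 genes of the squalene to cholesterol arm, 5 of 6 mevalonate genes and 3 of 3 fatty acid synthesis genes. It was found in 2 of 4 control genes, 2 of 4 desaturation and elongation genes and 0 of 2 transport genes. TCACNCCAC was found in 1 of the 37 windows (2.7%), that of SREBF2, against 0.883% of all windows. The matches of the motifs in SREBF2 did not overlap. A match is a run of letters and not a shown binding site.

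Values below are the authors' log2 RMA values, on which a difference of 1 is a doubling of signal, and the level of 1 gene is not set against that of another. A change is CHD4 shRNA minus scrambled from limma, called where the Benjamini-Hochberg adjusted p over all 11963 genes was under 0.05. With 3 arrays against 3 an exact two-sided permutation test cannot go below p = 0.1, so no such p is given gene by gene. The leukaemia lines expressed the leukocyte marker PTPRC at group means of 10.63 to 11.09 and the myeloid factor CEBPA at 11.30 to 11.62. The myeloid genes LYZ and CSF3R stood at 13.24 to 13.73 and 7.40 to 7.60. Another myeloid factor, SPI1, at 6.40 to 6.54, and the granule peroxidase MPO, at 5.20 to 5.78, lay below the array medians of 6.97 to 7.02. The arrays measure total RNA of a culture, so fewer cells expressing a gene and less RNA per cell cannot be told apart.

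In U937, PMVK, IDI1, SC5D and DHCR7, all enzymes of sterol synthesis, fell with CHD4 shRNA and 0 members rose. That is 4 of 29 measured members (13.8%) called lower, against 3.69% of all genes called lower, 2.67% called higher and 6.36% called in either direction. At an unadjusted p under 0.05, 9 of 29 members differed, against 19.0% of all genes. The median change over the 29 members was -0.24, against -0.0033 over all genes, and 26 of 29 changes were below 0 (89.7%, against 50.4% of all genes). In 18 of the 29 members every CHD4 shRNA array lay below every scrambled array (62.1%), against 14.6% of all genes. SREBF1 was the 1 member whose CHD4 shRNA arrays all lay above, against 12.2% of all genes. By role, the medians were -0.48 for the 7 mevalonate genes, -0.36 for the 9 measured genes from squalene to cholesterol, -0.20 for the 4 fatty acid synthesis genes, -0.18 for the 2 desaturation and elongation genes, -0.17 for the 4 control genes and -0.16 for the 3 transport genes.

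**Figure D1:**
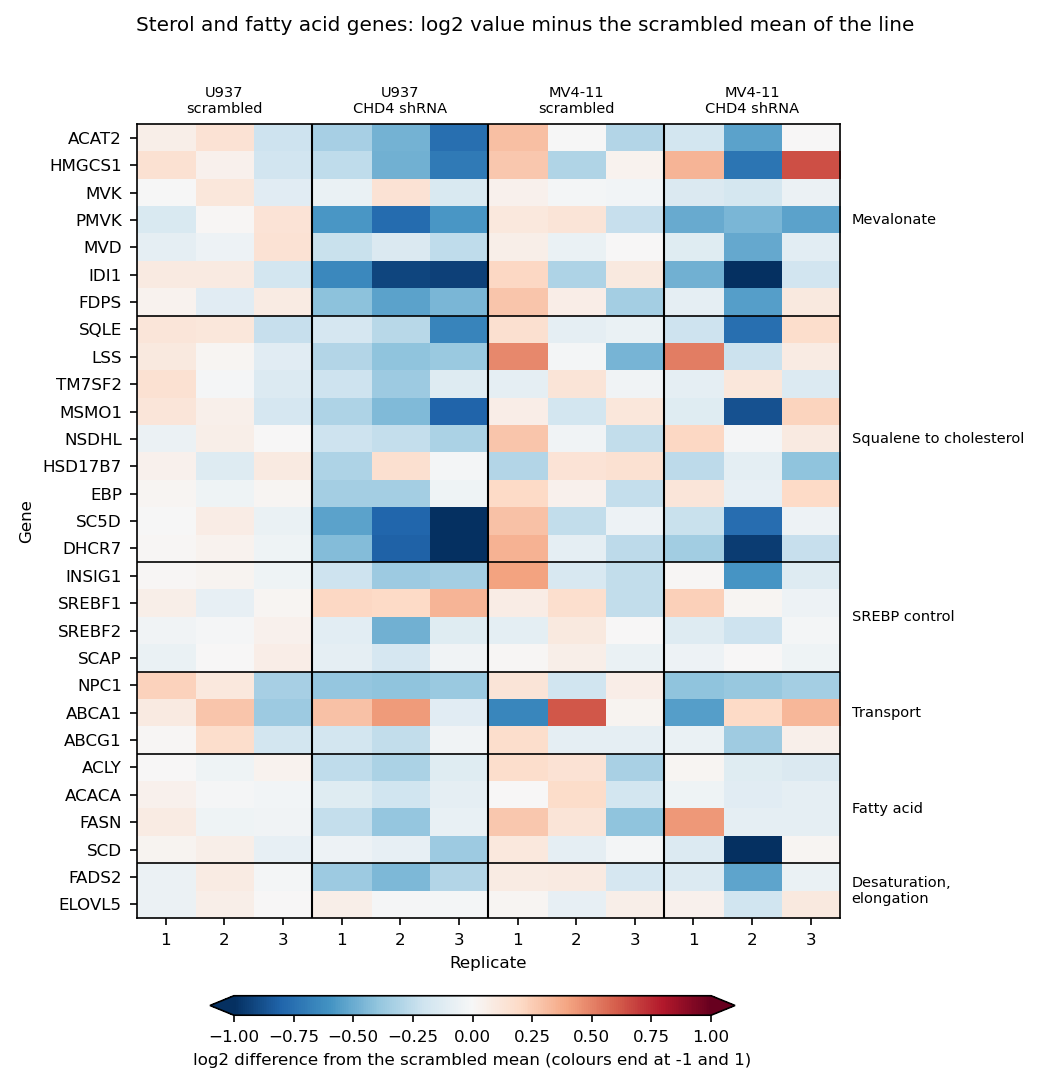
Log2 value of each of the 29 measured members (rows, by role) on each of the 12 arrays (columns) minus the scrambled mean of the same line, with blue below and red above it and colours ending at -1 and 1. The 3 U937 CHD4 shRNA arrays have 26, 25 and 28 of 29 members below the scrambled mean, and the MV4-11 CHD4 shRNA arrays 20, 25 and 17.

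The mevalonate arm builds the isoprenoid units of sterols. PMVK, which phosphorylates phosphomevalonate, read 9.29, 9.45 and 9.58 in the U937 scrambled arrays and 8.86, 8.67 and 8.86 in the CHD4 shRNA arrays. In MV4-11 it read 9.23, 9.25 and 8.89 against 8.62, 8.67 and 8.59. Both lines showed no overlap between groups, and the MV4-11 scrambled array of replicate 3 stood nearest the CHD4 shRNA arrays. PMVK fell by 0.64 (SE 0.11, adjusted p = 0.0065) in U937, which is 1.56-fold, and by 0.50 (SE 0.11, adjusted p = 0.018) in MV4-11, which is 1.41-fold. It was the 1 member called in both lines, and 1 probe set measured it.

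IDI1, which isomerises isopentenyl diphosphate, read 12.29, 12.29 and 12.01 in U937 scrambled arrays and 11.55, 11.28 and 11.26 with CHD4 shRNA, with no overlap. It fell by 0.83 (SE 0.19, adjusted p = 0.023), a 1.78-fold change, and its other probe set gave -0.84 (adjusted p = 0.025 over all probe sets). In MV4-11 it read 12.25, 11.73 and 12.14 against 11.56, 11.03 and 11.85, where the CHD4 shRNA array of replicate 3 lay above the scrambled array of replicate 2. The change there was -0.56 (SE 0.19, adjusted p = 0.088), and it passed with a replicate block (adjusted p = 0.0083).

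The other 5 mevalonate genes did not pass in either line. In U937 the changes were -0.52 (SE 0.18, adjusted p = 0.11) for ACAT2, a thiolase that makes acetoacetyl-CoA, and -0.48 (SE 0.28, adjusted p = 0.40) for HMGCS1, the HMG-CoA synthase. FDPS, which makes farnesyl diphosphate, had a change of -0.47 (SE 0.17, adjusted p = 0.14, and 0.022 with only the U937 arrays fitted), and MVD, the decarboxylase, one of -0.21. The arrays of these 4 genes did not overlap between the U937 groups. Mevalonate kinase, MVK, had a change of -0.02 on its brightest probe set and of -0.34 and -0.35 on the other probe sets (adjusted p = 0.067 and 0.051 over all probe sets). HMGCS1 ran from 9.65 to 11.03 over the MV4-11 CHD4 shRNA arrays, a wider range than its 10.08 to 10.65 in the scrambled arrays.

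In the arm from squalene to cholesterol, SC5D, the lathosterol desaturase, read 9.45, 9.53 and 9.39 in U937 scrambled arrays and 8.92, 8.66 and 8.37 with CHD4 shRNA. It fell by 0.81 (SE 0.19, adjusted p = 0.025), a 1.75-fold change. A second SC5D probe set, with a mean of 4.03, had a change of -0.01, and with the mean of both probe sets the call was lost (-0.41, adjusted p = 0.21). In MV4-11 SC5D read 9.76, 9.22 and 9.41 against 9.24, 8.70 and 9.41, overlapping, with a change of -0.35 (SE 0.19, adjusted p = 0.29).

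DHCR7, which makes cholesterol from its 7-dehydro precursor, read 9.92, 9.94 and 9.86 in U937 scrambled arrays and 9.47, 9.10 and 8.83 with CHD4 shRNA. The scrambled arrays lay close together, and the CHD4 shRNA arrays spread over a wider range below them. The gene fell by 0.77 (SE 0.21, adjusted p = 0.043), a 1.71-fold change, and a second probe set gave -0.80. In a fit over all probe sets the adjusted p was 0.049 for the first and 0.051 for the second, so they lay on either side of the threshold. The adjusted p was 0.064 after quantile normalization of the deposited values. In MV4-11 it read 10.25, 9.81 and 9.64 against 9.55, 8.95 and 9.67, and the change of -0.51 (SE 0.21, adjusted p = 0.14) did not pass.

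**Figure D2:**
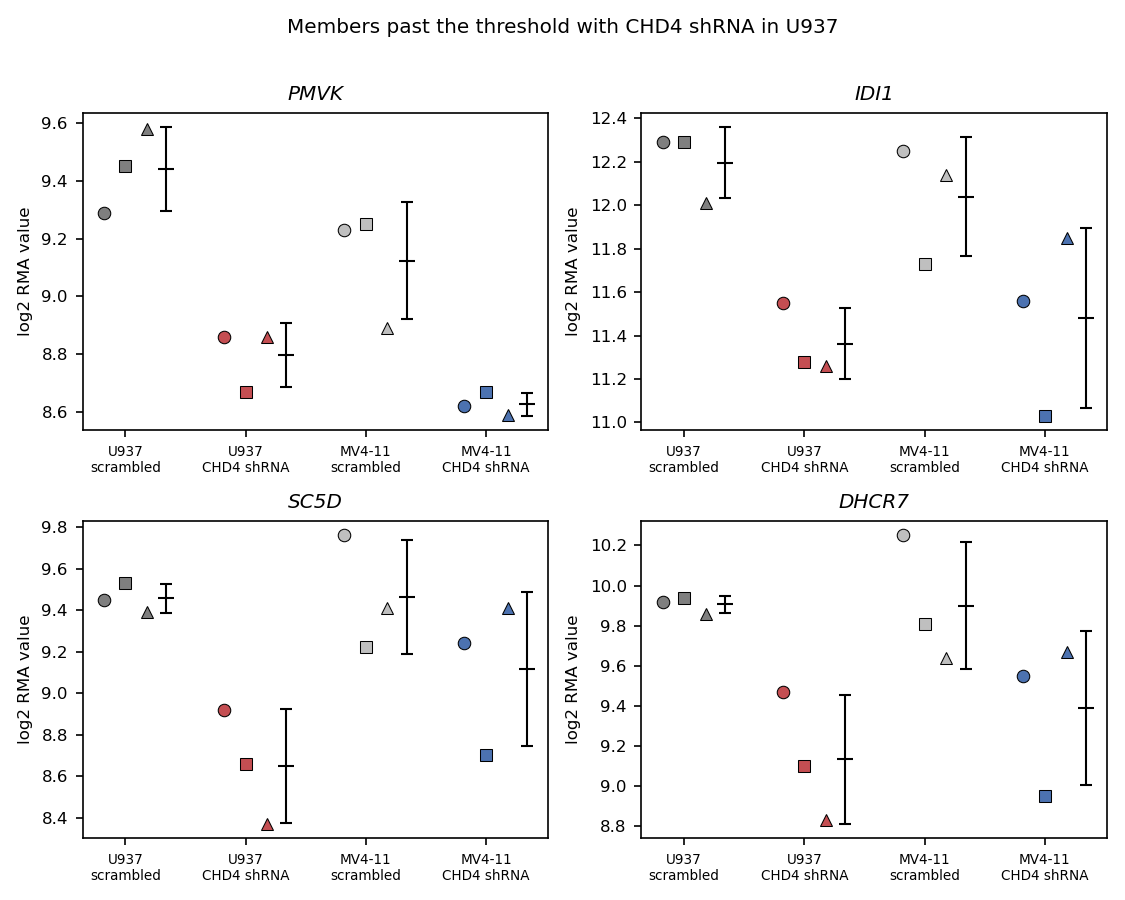
Log2 RMA values of PMVK, IDI1, SC5D and DHCR7 in the 4 groups, with circles, squares and triangles for replicates 1, 2 and 3 and bars for the mean and SD of 3 arrays (the vertical axes do not start at 0). The U937 groups do not overlap for any of the 4 genes, while in MV4-11 PMVK alone shows no overlap.

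The other 7 measured genes of this arm did not pass in U937, where their changes ran from -0.52 for MSMO1, the C4-methylsterol oxidase (SE 0.22, adjusted p = 0.22), to -0.06 for HSD17B7. SQLE, the squalene epoxidase, had a change of -0.37 and LSS, the lanosterol synthase, one of -0.36. Dimmer SQLE probe sets gave -0.54 and -0.49 in U937 (adjusted p = 0.13 and 0.23 over all probe sets). Dimmer LSS probe sets gave -0.47 and -0.23 (adjusted p = 0.055 and 0.67 over all probe sets). NSDHL, which acts with MSMO1 on the C4 methyl groups, stood at -0.26, EBP, the sterol isomerase, at -0.24, and the sterol reductase TM7SF2 at -0.23. MSMO1, LSS and NSDHL did not overlap between the U937 groups. In MV4-11 LSS, NSDHL and EBP had changes of 0.13, 0.09 and 0.08, and the other 4 ran from -0.26 to -0.04.

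None of the 4 control genes passed in either line. SREBF2 read 7.96, 7.98 and 8.04 in U937 scrambled arrays and 7.89, 7.51 and 7.87 with CHD4 shRNA, a change of -0.24 (SE 0.11, adjusted p = 0.27) with no overlap. Replicate 2 was the lowest of the CHD4 shRNA arrays. A second SREBF2 probe set, with a mean of 7.81 against 7.96, gave 0.01 in U937 (adjusted p = 0.97 over all probe sets). In MV4-11 SREBF2 read 8.0, 8.20 and 8.10 against 7.97, 7.89 and 8.08, with a change of -0.12.

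SREBF1, which encodes SREBP-1, read 8.85, 8.71 and 8.81 in U937 scrambled arrays and 9.00, 8.99 and 9.13 with CHD4 shRNA. Its value was thus higher in each CHD4 shRNA array, by 0.25 on average (SE 0.12, adjusted p = 0.27). In MV4-11 it read 8.82, 8.91 and 8.5 against 8.98, 8.76 and 8.69, and the groups overlapped. INSIG1, the sterol-sensing retention protein and itself an SREBP target, read 13.00, 13.02 and 12.95 against 12.78, 12.63 and 12.65 in U937. In MV4-11 it read 13.25, 12.69 and 12.60 against 12.86, 12.26 and 12.72, and its changes of -0.30 in U937 and -0.23 in MV4-11 did not pass. The other INSIG1 probe sets, dimmer than the one used, gave -0.65 and -0.46 in U937 and -0.76 and -0.30 in MV4-11. These did not pass either (adjusted p from 0.17 to 0.35 over all probe sets). SCAP read 9.20, 9.27 and 9.33 against 9.18, 9.10 and 9.23 in U937, and 9.20, 9.25 and 9.12 against 9.14, 9.19 and 9.15 in MV4-11. SCAP overlapped between groups in both lines.

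**Figure D3:**
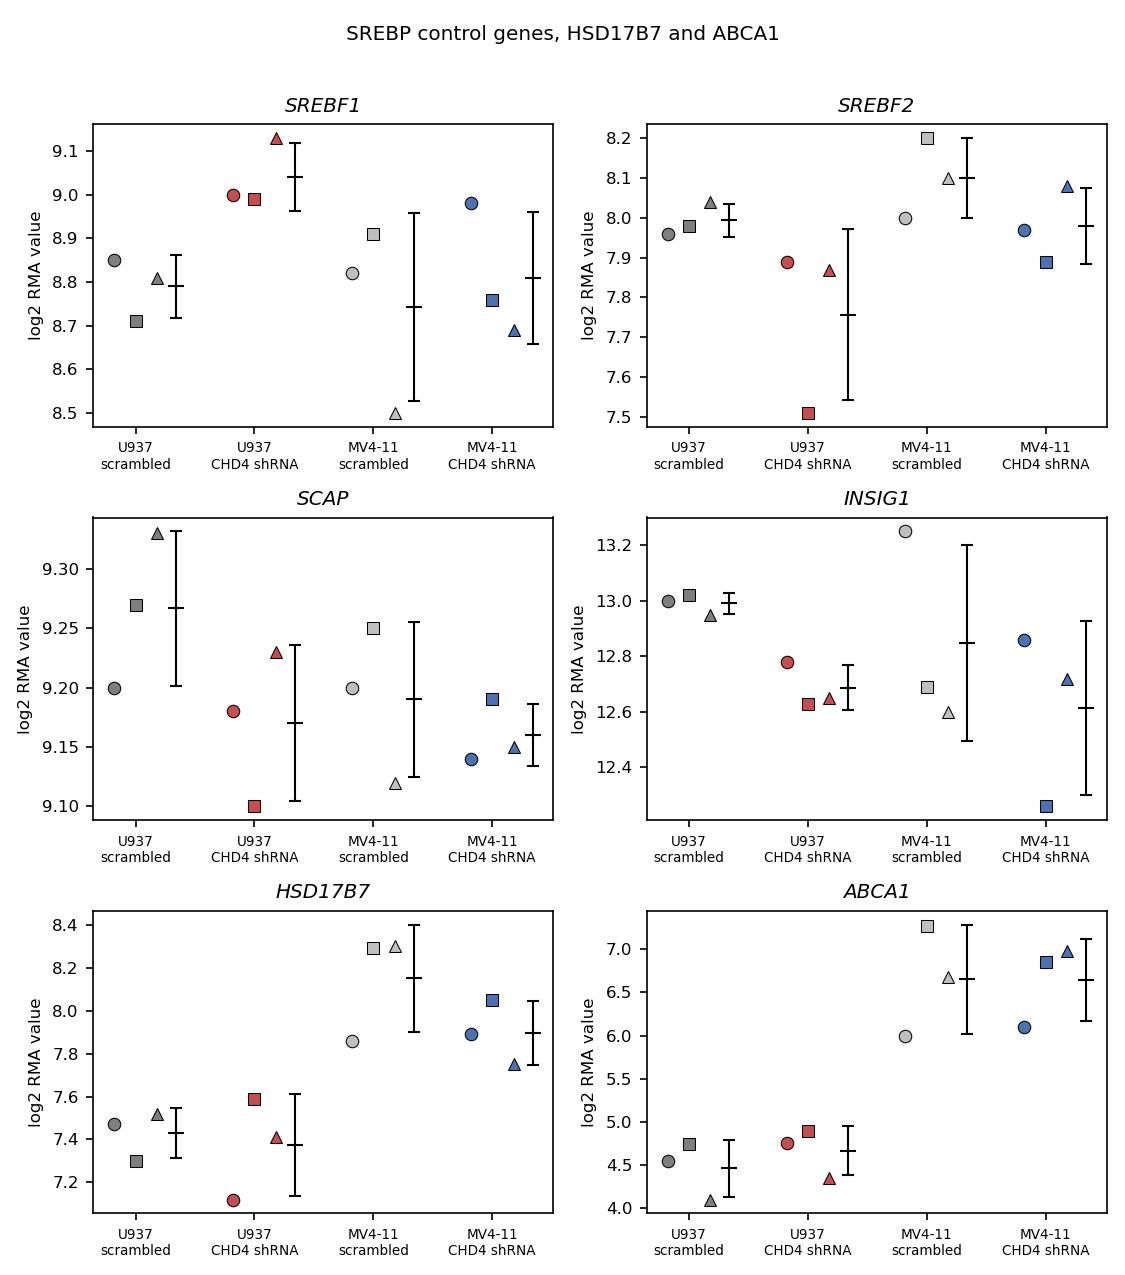
Log2 RMA values of SREBF1, SREBF2, SCAP, INSIG1, HSD17B7 and ABCA1 in the 4 groups, with circles, squares and triangles for replicates 1, 2 and 3 and bars for the mean and SD of 3 arrays (the vertical axes do not start at 0). On the probe sets shown SREBF1 is higher and SREBF2 and INSIG1 are lower in every U937 CHD4 shRNA array, while a second SREBF2 probe set changed by 0.01, and HSD17B7 and ABCA1 are higher in every MV4-11 scrambled array than in any U937 scrambled array.

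Among fatty acid genes, the changes in U937 were -0.23 for ACLY, which makes cytosolic acetyl-CoA, -0.14 for the acetyl-CoA carboxylase ACACA, -0.23 for the fatty acid synthase FASN and -0.17 for the stearoyl-CoA desaturase SCD. The other SCD probe sets, dimmer than the one used, gave -0.44, -0.64 and -0.67 in U937 (adjusted p = 0.45, 0.25 and 0.24 over all probe sets), and the other FASN probe set gave 0.03. The front-end desaturase FADS2 had a change of -0.37 (SE 0.12, adjusted p = 0.11) in U937 and -0.25 in MV4-11, and the elongase ELOVL5 stood at 0.01 and -0.02. SCD read 13.24, 12.37 and 13.40 in the MV4-11 CHD4 shRNA arrays, so its change of -0.37 (adjusted p = 0.29) came with 1 low array. NPC1 had changes of -0.39 (SE 0.13, adjusted p = 0.12) in U937 and -0.37 (SE 0.13, adjusted p = 0.099) in MV4-11, with no overlap between groups in either line. A second NPC1 probe set, with a mean of 6.15 against 10.73, gave -0.06 and -0.10 (adjusted p = 0.90 and 0.73 over all probe sets). ABCG1, with changes of -0.16 and -0.12, and ABCA1, with 0.20 and -0.01, did not pass.

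In MV4-11, PMVK was the 1 member of 29 that passed (3.45%), against 4.69% of all genes called lower, 4.73% called higher and 9.42% in either direction, and 0 members rose. At an unadjusted p under 0.05, 4 of 29 differed, against 24.5% of all genes. The median change was -0.13, against -0.03 over all genes, and 23 of 29 changes were below 0 (79.3%, against 55.3%). In 4 members, MVK, PMVK, MVD and NPC1, the CHD4 shRNA arrays all lay below the scrambled ones (13.8%, against 14.1% of all genes), and in 0 they all lay above (against 11.5%). With the replicate number as a block within each line, IDI1 joined PMVK and 2 members passed, while the count over all genes went from 1127 to 2351.

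The 3 MV4-11 pairs of same-numbered arrays differed. In replicate 1 the CHD4 shRNA array was below the scrambled array in 21 of 29 members (72.4%, against 53.4% of all genes), with a median difference of -0.18. In replicate 2 it was below in 28 of 29 (96.6%, against 54.6%), with a median of -0.31. In replicate 3 it was below in 8 of 29 (27.6%, against 49.0%), with a median of 0.10. Over all genes the median difference was between -0.04 and 0.0 in the 3 pairs. CHD4 itself read 8.79, 8.85 and 8.39 in these CHD4 shRNA arrays, lowest in replicate 3, and its part in this was not tested. DHCR7 differed by -0.70, -0.86 and 0.03 in replicates 1, 2 and 3, and SC5D by -0.52, -0.52 and 0.00. The CHD4 shRNA array was lower in all 3 pairs for 6 of 29 members, MVK, PMVK, MVD, IDI1, SREBF2 and NPC1. PMVK differed by -0.61, -0.58 and -0.30 and IDI1 by -0.69, -0.70 and -0.29. The share of all genes lower in all 3 pairs was not counted, so the 6 have no background to stand against.

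**Figure D4:**
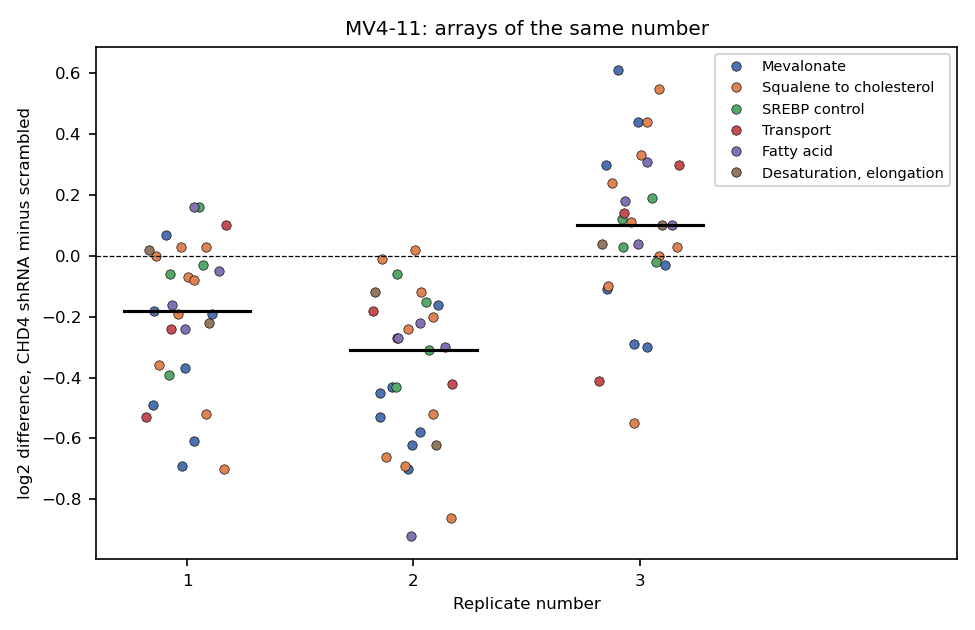
Difference between the MV4-11 CHD4 shRNA and scrambled arrays of the same replicate number (horizontal axis) on the log2 scale (vertical axis), with a point for each of the 29 members coloured by role and a line at the median. The medians are -0.18, -0.31 and 0.10, and replicate 3 has 8 of 29 members below 0.

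The change with CHD4 shRNA was not shown to differ between the lines for any member. The difference of the changes (MV4-11 minus U937) passed for 0 of 29 members and 0.0% of all genes by limma. At an unadjusted p under 0.05 it counted 0 of 29 members and 546 of all genes (4.56%). The median difference was 0.12, against -0.01 over all genes, and 7 of 29 differences were below 0 (24.1%, against 51.8% of all genes). It was widest for HMGCS1 at 0.56 (95% interval -0.29 to 1.42), LSS at 0.48 (-0.16 to 1.13) and SC5D at 0.46 (-0.12 to 1.04). For PMVK it was 0.15 (-0.20 to 0.50).

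**Figure D5:**
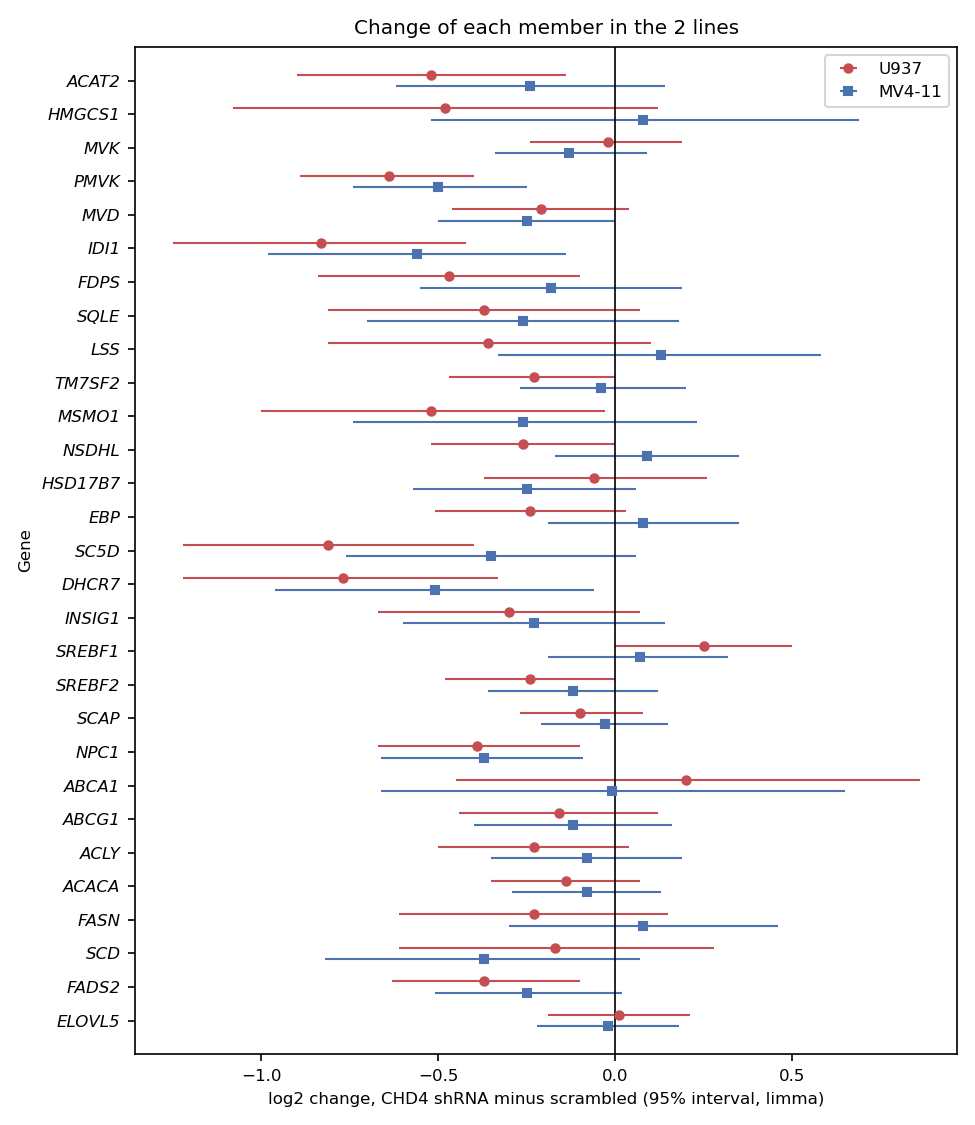
Log2 change with CHD4 shRNA (horizontal axis) of each of the 29 members (vertical axis) in U937 (circles) and MV4-11 (squares), with 95% intervals from limma that are not adjusted for the number of genes. PMVK lies at -0.64 and -0.50, and the intervals of the lines overlap for every member.

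Leaving out 1 array changed the counts. In U937 PMVK alone passed when the scrambled array of replicate 1 or of replicate 2 was left out, and when the CHD4 shRNA array of replicate 2 or of replicate 3 was. The count over all genes, 761 with every array, was then between 306 and 416. Without the MV4-11 CHD4 shRNA array of replicate 2, 6 members passed in U937, FADS2 and MSMO1 in addition, with 906 genes called in all. In MV4-11 0 members passed without scrambled replicate 1, scrambled replicate 2 or CHD4 shRNA replicate 1 (PMVK adjusted p = 0.064, 0.071 and 0.070), and 0 with only the MV4-11 arrays fitted (0.062). The count over all genes in MV4-11, 1127 with every array, was then 763, 647, 422 and 513. In MV4-11 2 members passed without CHD4 shRNA replicate 3 (IDI1 and PMVK) and without U937 scrambled replicate 3 (NPC1 and PMVK). Over all genes 1964 and 1048 were then called. Without U937 scrambled replicate 3, IDI1, NPC1 and PMVK passed in U937, with 393 genes called in all. With only the U937 arrays fitted 6 passed there, FDPS and FADS2 in addition to the 4, with 846 genes called in all.

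The scrambled controls of the lines differed in 2 members. ABCA1 read 4.55, 4.74 and 4.10 in U937 and 6.0, 7.27 and 6.68 in MV4-11, with no overlap. It was higher in MV4-11 by 2.19 (SE 0.30, adjusted p = 0.0011). By its mean over the 12 arrays ABCA1 was among the dimmest 25% of genes, and its U937 values may be background, so no fold is given. The other ABCA1 probe sets gave 1.53 (adjusted p = 0.010 over all probe sets) and 0.06, which was not past the threshold. HSD17B7, a 3-ketosteroid reductase of cholesterol synthesis, read 7.47, 7.30 and 7.52 in U937 and 7.86, 8.29 and 8.30 in MV4-11, higher by 0.72 (SE 0.15, adjusted p = 0.013). That is 2 of 29 members called higher (6.9%, against 2.97% of all genes) and 0 called lower (against 2.51%), with 5.48% of all genes called in either direction. At an unadjusted p under 0.05, 7 of 29 members differed, against 20.1% of all genes. In 4 members, HSD17B7, EBP, ABCA1 and ELOVL5, all MV4-11 arrays lay above the U937 arrays (against 11.9% of all genes), and in PMVK and FASN all lay below (against 14.4%). HSD17B7 did not pass without U937 scrambled replicate 2 (adjusted p = 0.067) or MV4-11 scrambled replicate 2 (0.063) or 3 (0.062), and without MV4-11 scrambled replicate 1 FASN (-0.73, adjusted p = 0.038) and LSS (-0.82, adjusted p = 0.025) passed as well. FASN also passed without MV4-11 CHD4 shRNA replicate 1 (adjusted p = 0.049). With CHD4 shRNA, ABCA1 stood at 4.67 ± 0.28 in U937 and 6.64 ± 0.48 in MV4-11 (SD, n = 3).

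A further 35 measured genes of lipid handling, outside the list, gave 0 calls in U937, against 6.36% of all genes called in either direction. They gave 1 call in MV4-11 (2.86%, against 9.42%), the oxysterol-binding protein OSBPL1A at -0.83 (SE 0.23, adjusted p = 0.041). Their changes ran from -0.52 to 0.38 in U937 and from -0.83 to 0.71 in MV4-11, where the median was -0.02. Between the scrambled controls, SOAT1, which esterifies cholesterol, was higher in MV4-11 by 0.73 (SE 0.16, adjusted p = 0.017) and the acyl-CoA synthetase ACSL5 lower, at -0.54 (SE 0.13, adjusted p = 0.027). Those are 2 of 35 genes (5.71%), near the 5.48% of all genes called in either direction.

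Of 19 measured monocyte and macrophage markers 5 rose in each line (26.3%, against 2.67% of all genes in U937 and 4.73% in MV4-11). In each line 1 fell (5.26%, against 3.69% of all genes in U937 and 4.69% in MV4-11) and 13 did not pass. The median change of the list was 0.11 in U937 and 0.07 in MV4-11, with 5 and 7 of 19 changes below 0. Among those that passed were the lipid scavenger receptor CD36 with changes of 2.48 in U937 and 2.30 in MV4-11, and the lysosomal protease CTSD with -0.62 and -0.71. The summed level of the list ran from 13.29 to 13.53 in U937 scrambled and 13.75 to 14.09 in U937 CHD4 shRNA arrays, and from 13.21 to 13.30 and 13.66 to 13.82 in MV4-11. That sum weighs the brightest genes most, such as CTSB, AIF1 and FCER1G. Of 7 lymphoid markers CD79B rose in both lines (14.3%, against the same 2.67% and 4.73% of all genes). Of the 3 erythroid and 8 epithelial and fibroblast markers 0 passed. Their part in the sterol results was not tested.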

How the data were processed

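Total RNA of 12 cultures was hybridised as biotinylated cRNA to Affymetrix arrays, 3 arrays per group, described as biological triplicates in the series text. The authors deposited 1 table of log2 values, and the submitters' processing notes name RMA, with no version. RMA as published quantile-normalizes the arrays, which hides a shift common to most genes, and compresses differences of dim genes. Of 22277 probe sets, 62 controls were left out, 19064 had 1 gene symbol, 1043 had several and 2108 were unnamed. Names come from the platform annotation, and 19052 of the named probe sets matched RefSeq by Entrez identifier.

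A limma 3.58.1 model (R 4.3.3) with 4 group means was fitted to all 12 arrays, followed by eBayes (8 residual and 4.66 prior degrees of freedom), and was tested on simulated data. P-values were adjusted over 11963 genes. The number of arrays limits the precision, and the p-values measure the spread between the arrays at hand. Second probe sets were read from the same model fitted to all probe sets with 1 symbol. Same-numbered arrays of the MV4-11 groups deviated together from their group means (r = 0.457, 0.478 and 0.494). Those of U937 did so in replicates 2 and 3 (0.351 and 0.336) but not in replicate 1 (0.00227). The numbers thus pair the arrays in MV4-11, and only in part in U937. This comes from the titles and the data.

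Every measured member could be named, with array values for those past the threshold in either line and for the 4 control genes. Up to 5 further lipid genes per direction were named where they passed. CHD4 was the label check. CD36, CTSD, the members past the threshold between controls and the markers of cell identity were named after their values were seen. The members and lists were chosen with earlier results of these data known. Alternatives were a filter on dim genes, other normalizations, eBayes with trend, averaging the probe sets of each gene, fewer groups, replicate blocks and leaving out each array.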

Additional observations from a re-analysis of the deposited data

How the results depend on the processing

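Among the alternatives run, the direction held for each member past the threshold. PMVK in U937 passed in all 19 alternatives (adjusted p from 0.0035 to 0.037), IDI1 in 15, SC5D in 13 and DHCR7 in 11, and PMVK in MV4-11 in 15. Without 1 array, the members past the threshold numbered from 1 to 6 in U937, from 0 to 2 in MV4-11 and from 1 to 4 between the scrambled controls, and the difference of the changes gave 0 throughout. With only the arrays of the groups compared, the count was 0 in MV4-11 and 6 in U937, and the MV4-11 count was 2 when each line had a replicate block. The count between controls was 1 without the dimmest 25% of genes, since ABCA1 is then not tested. With the replicate block, MSMO1 also passed in U937 (adjusted p = 0.040), where the numbers pair the arrays only in part. The count over all genes in U937 went from 761 to 1474. IDI1 also passed in MV4-11 with the block, and no other call changed for a member. The median change of members ran from -0.28 to -0.22 in U937 and from -0.20 to -0.06 in MV4-11. Members never past the threshold changed sign under at least 1 alternative in 3 of 21 cases in U937, with a change of at most 0.06, and in 14 of 26 in MV4-11, with a change of at most 0.26. The causes were not tested. Dim signals such as ABCA1, ABCG1 and the second SC5D probe set limit the folds that can be read.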
